A study of Mus musculus with 8 samples.

Results

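Single-cell transcript counts of the mouse mammary gland were used to follow 9 genes of fatty acid release, uptake, transport and use: Lpl, Lipa, Cel, Cd36, Fabp3, Fabp4, Fabp5, Dbi and Pdk4. They were chosen by symbol, with earlier results of these data known, and make up 9 of the 27998 genes in the deposited tables. C57BL/6N mice were sampled as nulliparous females (NP, 8 weeks old), at gestation day 14.5 (G), at lactation day 6 (L) and 11 days after the pups were weaned naturally (PI), with 2 mice per stage and no genetic or drug treatment. Gland cells were sorted for the epithelial surface protein EpCAM, with CD31, CD45 and Ter119 used to exclude endothelial, immune and red blood cells, and run on a droplet platform that counts unique molecular identifiers (UMIs), 1 per captured transcript. Counts were summed over the cells of each mouse and each cluster assigned by the authors, wherever 20 or more cells were present, and are given as counts per 1000000 UMIs of that sum (CPM). Pairs of CPM values below are those of mouse 1 and mouse 2.

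Milk fat is assembled from fatty acids made in the gland and from fatty acids drawn from the blood. Lipoprotein lipase (Lpl) is secreted and acts at the capillary wall, where it frees fatty acids from circulating triglyceride, CD36 helps them across the plasma membrane, and fatty acid-binding proteins (Fabp3, Fabp4, Fabp5) and the acyl-CoA-binding protein (Dbi) carry them and their activated form through the cytosol. Lysosomal acid lipase (Lipa) frees fatty acids inside lysosomes, carboxyl ester lipase (Cel) is the bile salt-stimulated lipase known from pancreas and milk, and pyruvate dehydrogenase kinase 4 (Pdk4) shuts off pyruvate dehydrogenase, which spares glucose when fatty acids are burned.

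The clusters carry the study's names. Luminal progenitors are C6 in NP and C7 in PI, hormone-sensing progenitors C2 in NP and C1 in PI, and differentiated hormone-sensing cells C4 in NP, C5 in G and C3 in PI. Differentiated alveolar cells, which make milk, are C8 in G and C9 in L, and alveolar progenitors are C10 in G and C11 in L. Basal cells are mainly C12 in NP and PI and C13 in G, and C14 in L is called myoepithelial. C12 to C14 were pooled per mouse for the tests of basal cells.

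The libraries held 13785920 to 35711533 UMIs, with medians of 3770 to 9514 UMIs per cell, and 24699 cells of C1 to C19 gave 51 sums of 20 or more cells. Luminal keratins and Epcam summed to 1904 to 21672 CPM in C1 to C11 and the basal markers Krt5, Krt14 and Acta2 to 6817 to 32454 CPM in C12 to C14, but both alveolar clusters of lactation also held basal markers (2012 and 879 CPM in C9, 4647 and 3323 CPM in C11). C15, named as Procr+ basal in the study, carried 5441 and 4819 CPM of pericyte markers beside its basal markers, and C17, C18 and C19 carried macrophage, fibroblast and endothelial markers despite the sort. Adipocyte markers summed to at most 0.624 CPM in C1 to C8 and C10, and to 4.04 to 15.7 CPM in C9 and C11, where Adipoq was at 0. C9 comprised 42 and 47 cells, and its 8 milk protein genes took 447538 and 417202 CPM, so every other gene of C9 has a lower CPM than its share of the remaining RNA. A lower level can mean fewer cells with the RNA or less RNA per cell, which sums cannot tell apart. PI mouse 1 was in diestrus and PI mouse 2 in oestrus, as were both NP mice, so cycle stage cannot be told apart from mouse.

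On the GRCm38 build the genes lie on 8 chromosomes, all protein-coding: Lpl at chr8:68880491-68907448 (plus strand), Lipa at chr19:34492318-34527474 (minus), Cel at chr2:28555795-28563403 (minus), Cd36 at chr5:17781690-17888801 (minus), Fabp3 at chr4:130308595-130315463 (plus), Dbi at chr1:120113280-120121078 (minus) and Pdk4 at chr6:5483351-5496309 (minus). Fabp5 at chr3:10012548-10016607 (plus) and Fabp4 at chr3:10204088-10208576 (minus) lie near each other on the same chromosome. Dbi was seen in 88.5% of all cells and Cel in 7.12%. Because Pdk4, Cel and Lipa had the largest log2 rises of the 9 genes in luminal progenitors of PI mice, the 250 bases before their RefSeq starts (GRCm38.p6, all on the minus strand, written 5′ to 3′ along the gene at chr6:5496279-5496528, chr2:28563404-28563653 and chr19:34527475-34527724) are shown, with motif matches in capitals.
Pdk4: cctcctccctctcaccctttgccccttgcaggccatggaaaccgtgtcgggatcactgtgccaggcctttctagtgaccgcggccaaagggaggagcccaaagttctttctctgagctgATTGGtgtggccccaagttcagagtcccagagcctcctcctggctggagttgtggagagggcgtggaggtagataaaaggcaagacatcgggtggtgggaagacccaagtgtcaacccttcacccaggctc
Cel: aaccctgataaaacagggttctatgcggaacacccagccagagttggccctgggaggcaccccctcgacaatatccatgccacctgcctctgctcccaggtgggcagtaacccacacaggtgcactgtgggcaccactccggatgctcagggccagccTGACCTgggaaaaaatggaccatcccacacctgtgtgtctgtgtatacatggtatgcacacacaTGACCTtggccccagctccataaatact
Lipa: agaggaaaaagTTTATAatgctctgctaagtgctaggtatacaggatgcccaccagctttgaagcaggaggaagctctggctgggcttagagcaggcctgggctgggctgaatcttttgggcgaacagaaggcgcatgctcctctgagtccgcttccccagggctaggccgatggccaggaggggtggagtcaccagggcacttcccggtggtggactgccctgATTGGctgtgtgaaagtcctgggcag

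The capitals mark different motifs in the 3 promoters. Pdk4 holds the NF-Y box CCAAT once, on the opposite strand, 131 to 127 bases before the start. Cel holds the nuclear receptor half-site AGGTCA on the opposite strand, at 92 to 87 and at 28 to 23 bases before the start. Lipa holds TATAAA (239 to 234 bases before the start) and CCAAT (26 to 22 bases), both on the opposite strand. Searched on both strands of 32851 RefSeq promoter windows of this length, CCAAT was found in 33.9%, AGGTCA in 14% and TATAAA in 12.4%. The STAT motif TTCNNNGAA (7.02% of windows), the FOXO motif GTAAACA (3.17%) and the direct repeat of AGGTCA with a single base between, bound by PPAR and RXR (0.033%, each match also holding AGGTCA), were not among the letters of these 3 windows. A match describes letters and not a binding site. RefSeq windows were matched for 6 of the 9 genes, without Lpl, Fabp4 and Fabp5.

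The 9 genes did not share a single pattern across the gland. In epithelial clusters, Lpl, Cel, Cd36 and Fabp3 were highest in the differentiated alveolar cells of lactation, Dbi in those of gestation, Fabp5 in the basal cells of gestation and Pdk4 in the luminal progenitors of PI mice, while Fabp4 was mainly a gene of endothelial C19 and pericyte marker-bearing C15. These orders held when the milk protein genes were left out of the totals and, save for Pdk4, when UMIs per cell were used. Pdk4 per cell was highest in C1, with 6.03 UMIs against 5.82 in C7. Lipa was highest in C11 on CPM and in C9 on both other scales.

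**Figure D1:**
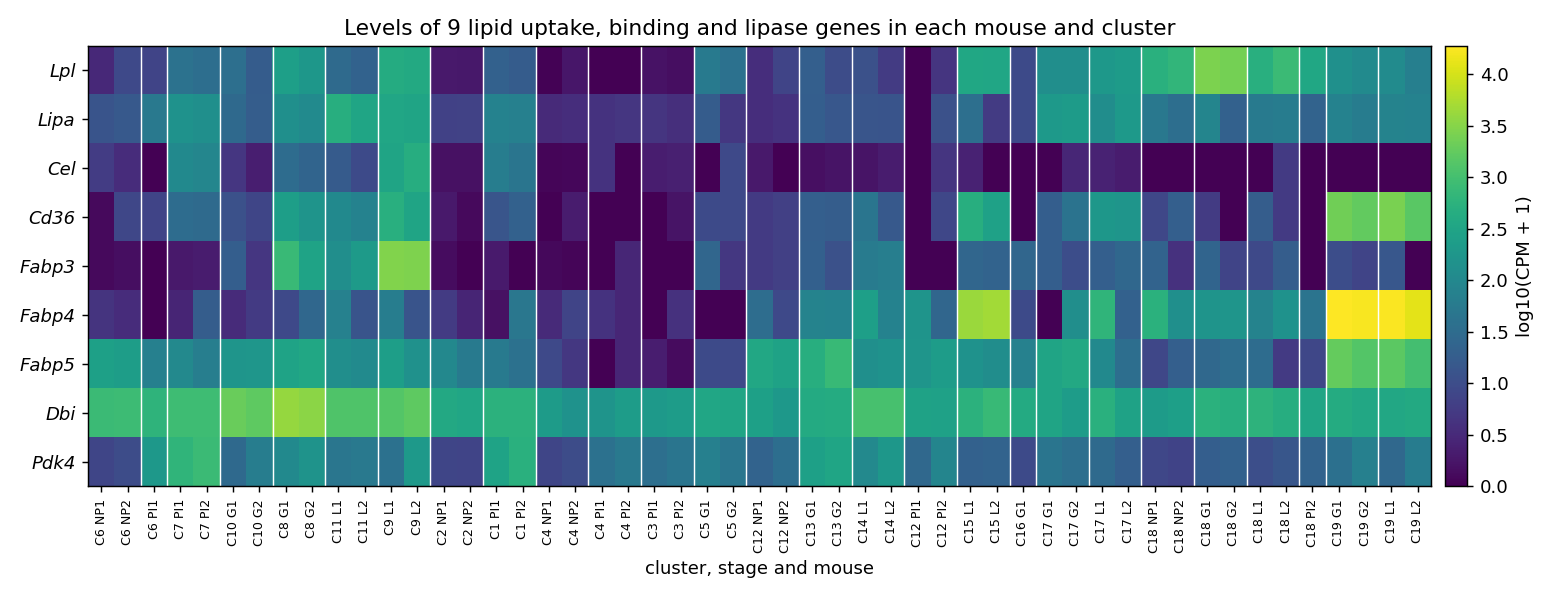
Level of each of the 9 genes (vertical axis) in every sum of a cluster and mouse with 20 or more cells (horizontal axis), coloured by log10(CPM + 1), with white lines between clusters and stages. Lpl, Cel, Cd36 and Fabp3 are bright in the L mice of C9, Fabp4 in C19 and C15, and Pdk4 in the PI mice of C7 and C1.

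Of the lipases, Lpl reached 432 and 392 CPM in lactation C9 and 261 and 179.7 CPM in gestation C8, against 29.6 and 21.2 CPM in C11 and 35.2 and 16.2 CPM in C10. C9 stood above C8 in every mouse, and no mouse of the progenitor clusters reached either of them. The fibroblast marker cluster C18 held more Lpl than any epithelial cluster in gestation, with 2653 and 2380 CPM, whereas its levels in NP (520 and 643 CPM) and L (501 and 806 CPM) overlapped. Cel reached 318 and 466 CPM in C9, 104 and 92.3 CPM in C7 and 63.5 and 44.4 CPM in C1, in an order whose mice did not overlap, and was at 0 in both stages of C19. Lipa was at 477 and 328 CPM in C11 and 341 and 310 CPM in C9, 2 clusters that overlapped on CPM, followed by the macrophage marker cluster C17 with 202 and 224 CPM in G.

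Of the uptake and carrier genes, Cd36 was highest in endothelial C19, with 2245 and 1756 CPM in G and 2561 and 1528 CPM in L. In epithelium it reached 496 and 318 CPM in C9, which overlapped C15 (470 and 280.3 CPM), and C8 lay below C9 at 245 and 162 CPM. Fabp3, the binding protein of heart muscle and of the lactating gland, was concentrated in milk-making cells: 2968 and 2772 CPM in C9, 774 and 301 CPM in C8, 127 and 209 CPM in C11, and at most 1.92 CPM in each sum of C1 to C4, C6 and C7. C9, C8 and C11 did not overlap each other. Fabp4, the adipocyte and endothelial binding protein, was at 18832 and 17355 CPM in C19 in G and 17594 and 12374 CPM in L, and at 4260 and 4828 CPM in C15. No luminal cluster exceeded 75.9 CPM.

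Fabp5, the epidermal binding protein, was broader. After C19 (988 to 1839 CPM) its highest levels were 481 and 745 CPM in C13. C17 in G (312 and 384 CPM), C8 (297 and 354 CPM) and C12 of NP (359 and 285 CPM) followed below C13 and overlapped each other, and C6 (271 and 241 CPM) lay below all of them. Differentiated hormone-sensing cells were the low end at 7.66 and 3.93 CPM in C4 of NP and 1.20 and 0.322 CPM in C3. Dbi was highest in C8 at 3988 and 3339 CPM and lowest in C4 of NP at 219 and 150.3 CPM. For Pdk4, C7 (628 and 828 CPM) stood above C1 (296 and 523 CPM), which overlapped gestation C13 (264 and 325 CPM), and the low end among luminal clusters was C6, C4 and C2 of NP at 6.65 to 8.96 CPM.

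Resting luminal cells of PI mice, which had been through pregnancy, lactation and involution, were compared with those of NP mice. The NP mice were 8 weeks old and the age of the PI mice is not given. Age therefore cannot be told apart from the completed cycle. In luminal progenitors, 5 of the 8 genes tested rose and 1 fell in PI against NP (C7 against C6), while of all 10744 genes tested 27.5% were called at an adjusted p of 0.05 (14.2% higher and 13.3% lower). The 5 that rose were the 3 lipases, Cd36 and Pdk4, Fabp5 fell, and Fabp3 was too low to be tested. In hormone-sensing progenitors (C1 against C2) 7 of 8 rose and 1 fell, while 16.2% of all genes were called (9.45% higher and 6.80% lower). In differentiated hormone-sensing cells (C3 against C4) 2 of 6 rose and 1 fell, while 16.1% of all genes were called (8.54% higher and 7.54% lower). The median log2 fold change of the genes tested was 3.20 in luminal progenitors and 3.93 in hormone-sensing progenitors, against -0.01 and -0.02 over all genes.

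Pdk4 showed the largest difference in luminal progenitors. Its level was 6.94 and 8.71 CPM in C6 of NP mice and 628 and 828 CPM in C7, so that each PI mouse was far above each NP mouse. The fitted change was 100-fold (log2 6.65, SE 0.23, adjusted p = 1e-08). In hormone-sensing progenitors the levels were 6.96 and 6.65 CPM in NP and 296 and 523 CPM in PI, a 60.3-fold rise (log2 5.92, SE 0.30, adjusted p = 4.5e-07). Differentiated hormone-sensing cells had 6.71 and 8.96 CPM in NP and 35.7 and 44.7 CPM in PI, a rise (log2 2.32, SE 0.21, adjusted p = 1.7e-05). The luminal levels of NP mice thus lay between 6.65 and 8.96 CPM in all 3 cell types, and those of PI mice were spread from 35.7 to 828 CPM. Cells of PI mice that the authors placed in the NP clusters also had more Pdk4: 37.9 and 51.7 CPM in C4 and 191 CPM in the 22 C6 cells of PI mouse 1. In the same 22 cells Lipa was at 52.7 CPM, Lpl and Cd36 at 6.59 CPM from 1 UMI each, and Cel at 0. At this depth 3 UMIs make 19.8 CPM, above the C6 levels of Lpl, Cd36 and Cel in NP mice.

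The 3 lipases rose in both progenitor types. Cel measured 4.83 and 2.49 CPM in NP luminal progenitors against 104 and 92.3 CPM after involution, a 27.1-fold rise (log2 4.76, SE 0.23, adjusted p = 1.7e-07). In hormone-sensing progenitors Cel went from 0.58 CPM in each NP mouse of C2 to 63.5 and 44.4 CPM in C1 (log2 6.42, SE 0.35, adjusted p = 5e-07). The C2 levels rest on 3 and 2 UMIs, so the size of this fold change is uncertain. In C1 the 1% of cells with most Cel held 33.3% and 18.8% of its UMIs. Lipa increased from 12.1 and 14.9 CPM to 148 and 134.5 CPM in luminal progenitors (log2 3.49, SE 0.17, adjusted p = 1.7e-07), and from 5.61 and 6.07 CPM to 76.2 and 71.0 CPM in hormone-sensing progenitors (log2 3.65, SE 0.18, adjusted p = 4.4e-07). Both were free of overlap between stages, and the Lipa of the 2 PI mice differed little. Lpl, at 2.11 and 7.88 CPM in C6, reached 40.6 and 34.6 CPM in C7 (log2 3.11, SE 0.34, adjusted p = 6e-05), and in hormone-sensing progenitors it went from 0.967 and 0.867 CPM to 20.1 and 16.3 CPM (log2 4.22, SE 0.37, adjusted p = 1.9e-05). In NP mouse 2 the 4 C6 cells with most Lpl held 84.2% of its Lpl UMIs and carried 2878 CPM of fibroblast markers, against 72.2 CPM in the other C6 cells of that mouse, and their part in the result was not tested.

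Cd36, the transporter, increased in luminal progenitors from 0.302 and 7.05 CPM to 30.8 and 28.6 CPM (log2 3.29, SE 0.49, adjusted p = 0.00049), and in hormone-sensing progenitors from 0.967 and 0.289 CPM to 12.2 and 19.9 CPM (log2 4.56, SE 0.47, adjusted p = 6.1e-05). PI and NP mice did not overlap. In luminal progenitors the call was not made with DESeq2 (log2 3.11, adjusted p = 0.21), and in NP mouse 2 the 4 cells with most Cd36 held 82.4% of its UMIs and carried 2600 CPM of fibroblast markers against 107 CPM in the rest, and no endothelial marker UMI. The part of these cells in the result was not tested. Endothelial markers summed to 4.83 and 7.88 CPM in NP and 1.76 and 8.03 CPM in PI luminal progenitors. With every cell that held an endothelial marker UMI left out, a choice made after seeing the data, the Cd36 level was 0.317 and 7.17 CPM in NP and 31.0 and 27.3 CPM in PI.

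The carriers went other ways. Fabp5 decreased from 271 and 241 CPM to 102 and 65.1 CPM in luminal progenitors, a 2.89-fold fall (log2 -1.53, SE 0.18, adjusted p = 9.8e-05), and also fell in both hormone-sensing types, although in C1 and C2 the mice overlapped (98.6 and 54.3 CPM in NP, 55.0 and 37.8 CPM in PI, adjusted p = 0.043) and the call was lost with DESeq2 (adjusted p = 0.11), without NP mouse 1 (0.48) or without PI mouse 2 (0.08). Dbi in luminal progenitors, 821 and 848 CPM in NP against 901 and 879.8 CPM in PI, did not pass the test (log2 0.18, SE 0.13, adjusted p = 0.34), whereas it rose 1.55-fold in hormone-sensing progenitors (375 and 339.5 CPM to 554 and 563 CPM, adjusted p = 0.0087), a call lost without NP mouse 1 (0.073) or NP mouse 2 (0.1). Fabp4 passed the test in hormone-sensing progenitors with a log2 fold change of 3.12 (SE 0.85, adjusted p = 0.028) on levels of 4.64 and 1.73 CPM in NP and 0.529 and 48.1 CPM in PI. The mice overlapped, DESeq2 did not make the call (adjusted p = 0.56), and without PI mouse 2 the log2 fold change was -2.61. In that mouse 4 cells held 76.0% of the Fabp4 UMIs of C1 and carried 545 CPM of endothelial markers against 22.8 CPM in the other cells. With cells holding an endothelial marker UMI left out, the Fabp4 level was 1.03 and 1.08 CPM in NP and 0.823 and 12.04 CPM in PI, and the gene was too low to be tested.

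**Figure D2:**
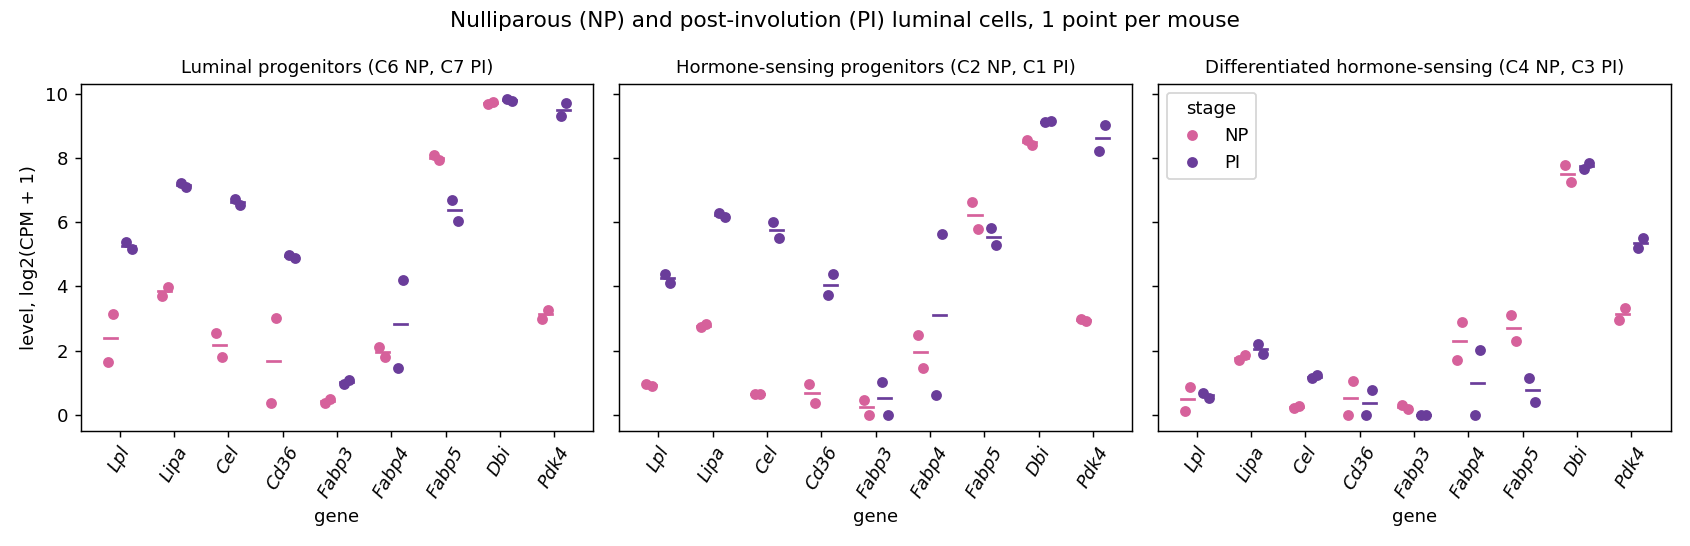
Level of the 9 genes as log2(CPM + 1) in NP and PI mice, in luminal progenitors, hormone-sensing progenitors and differentiated hormone-sensing cells, with 1 point per mouse and the mean of the points as a line. Pdk4, Cel, Lipa, Lpl and Cd36 separate by stage in both progenitor panels, and in differentiated hormone-sensing cells Pdk4 does so from at most 8.96 CPM in NP to at least 35.7 CPM in PI.

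In differentiated hormone-sensing cells Lpl, Lipa, Cel and Cd36 were at most 3.60 CPM in the NP and PI mice of this contrast, while Dbi stood at 202 to 227 CPM in PI and did not pass the test (log2 0.17, SE 0.18, adjusted p = 0.60). Cel passed the test at 0.158 and 0.207 CPM in NP and 1.20 and 1.35 CPM in PI (log2 2.73, SE 0.63, adjusted p = 0.012; 0.13 and 0.14 without NP mouse 1 or 2), and Fabp5 fell 11.5-fold (adjusted p = 0.00091). With C4 cells used in both stages, so that the cluster was the same (40 and 88 PI cells, chosen after seeing the data, 1.18% of 11059 genes called), Pdk4 still rose (log2 2.50, adjusted p = 0.00015), Fabp5 no longer passed (log2 -2.29, adjusted p = 0.51), and Cel was too low to be tested. Lipa was at 2.29 and 2.62 CPM in NP and 3.60 and 2.70 CPM in PI (log2 0.22, SE 0.35, adjusted p = 0.72).

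Whether the PI against NP difference itself differed between luminal progenitors and differentiated hormone-sensing cells was tested in a single fit with the mouse as a term. It did for 6 of the 8 genes tested, all towards luminal progenitors, while 13.7% of all 12132 genes were called (7.26% towards luminal progenitors and 6.48% the other way). The extra change was 4.31 on the log2 scale for Pdk4 (SE 0.25, adjusted p = 9.3e-09) and 3.22 for Lipa (SE 0.32, adjusted p = 3.8e-06). Fabp4, Cd36, Lpl and Fabp5 differed by 3.12, 3.06, 2.86 and 1.79, and for Fabp5 this means a smaller fall. In C4 and C3 alone, Lpl (at most 0.827 CPM) and Cd36 (at most 1.10 CPM) were too low to be tested. Their difference therefore rests on the luminal progenitors. For Fabp5 the size depends on C3, at 1.20 and 0.322 CPM. Fabp4 was uneven, with 1.76 and 17.6 CPM in the C7 cells of the PI mice against 3.32 and 2.49 CPM in C6. In PI mouse 2, 12 C7 cells held 70.0% of its Fabp4 UMIs and carried 238 CPM of endothelial markers, against 4.34 CPM in the rest. Within luminal progenitors alone Fabp4 did not pass (log2 1.81, SE 0.88, adjusted p = 0.15). Without NP mouse 2, whose few Lpl-rich and Cd36-rich C6 cells are given above, Lpl (log2 1.84, adjusted p = 0.69) and Cd36 (log2 1.43, adjusted p = 0.91) no longer passed, and Fabp5 lost its call without NP mouse 1 (adjusted p = 0.055) or PI mouse 2 (0.29). Cel (2.05, SE 0.85, adjusted p = 0.12) and Dbi (0.00, SE 0.21, adjusted p = 1.0) did not pass.

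Other genes of the pathway were read for the same contrasts, from lists also chosen with earlier results of these data known. Of 15 genes of mitochondrial fatty acid oxidation, 13 rose in luminal progenitors, 11 in hormone-sensing progenitors and 10 in differentiated hormone-sensing cells, and none of the 15 fell in the 3 tests, where 14.2%, 9.45% and 8.54% of all genes were called higher. Their median log2 fold changes were 0.83, 0.74 and 0.55, against -0.01 to -0.02 over all genes. An example is Slc25a20, the carnitine-acylcarnitine carrier, which in hormone-sensing progenitors measured 8.73 ± 0.498 CPM in NP and 24.0 ± 3.52 CPM in PI (mean ± SD, n = 2 mice, log2 1.41, SE 0.21, adjusted p = 0.0011). Of 10 tested genes of pyruvate dehydrogenase and its other kinases and phosphatases, 1 rose and 1 fell in luminal progenitors and none passed in hormone-sensing progenitors. The PPAR and RXR genes, receptors for fatty acids and their partners, numbered 5 and 4 tested in these 2 contrasts and none passed.

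Angptl4, a secreted inhibitor of lipoprotein lipase, rose with Lpl. Its level was 21.7 ± 14.2 CPM in NP luminal progenitors and 404 ± 18.7 CPM in those of PI (mean ± SD, n = 2 mice, log2 4.25, SE 0.27, adjusted p = 1.2e-06), and rose by a log2 of 2.30 in hormone-sensing progenitors and 1.23 in differentiated hormone-sensing cells, where the call was lost with C4 used in both stages (log2 0.66, adjusted p = 0.19). Of the same list of 8 genes, 2 fell in luminal progenitors: Vldlr (lipoprotein receptor) and Sdc1 (a heparan sulphate proteoglycan), by a log2 of 1.60 each. Acsl1, which activates fatty acids, and Pnpla2, the triglyceride lipase of lipid droplets, rose by a log2 of 1.86 and 1.57 there. Cav1 fell by a log2 of 1.90 and 2.31 in the hormone-sensing types. Of the 6 other lipases and cofactors tested, 4 rose in luminal progenitors and 3 in hormone-sensing progenitors, and none fell, where 14.2% and 9.45% of all genes were called higher. Of the genes for lysosomal lipid handling, 1 of 9 rose in luminal progenitors and 2 of 10 in hormone-sensing progenitors, and nothing is read from counts this low beside those shares.

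Within gestation, differentiated alveolar cells (C8) were compared with alveolar progenitors (C10) of the same mice. All 9 genes were higher in C8, while 28.2% of all 11930 genes were called (14.4% higher and 13.8% lower). The clusters were made from these same counts, so the test is not independent of the clustering and the levels are the result. Fabp3 was at 774 and 301 CPM in C8 and 17.6 and 3.74 CPM in C10, so C10 held 2.27% and 1.24% of the C8 level. Cd36 in C10 was 4.38% and 4.25% of its C8 level, Lpl 13.5% and 9.03%, Cel 12.1% and 5.46%, and Lipa 20.4% and 15.7%. Dbi (49.5% and 48.7%) and Fabp5 (56.4% and 49.2%) differed least. In C8 the UMIs of Lpl and Cd36 were spread over the cells: the 1% of cells with most of each held 4.97% to 8.65% of them. Fabp4 was not: its top 1% of C8 cells held 59.2% and 74.6% of its UMIs and carried 119 and 205 CPM of endothelial markers, against 4.48 and 5.20 CPM in the rest. Its call was lost with cells holding an endothelial marker UMI left out (log2 0.95, adjusted p = 0.12) and without the mouse term (log2 2.35, adjusted p = 0.077).

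In lactation, 7 of 9 genes were higher in differentiated cells (C9) than in progenitors (C11) of the same mice, while 14.2% of all 6115 genes were called (7.42% higher and 6.77% lower). Lpl in C11 was 6.86% and 5.40% of its C9 level, Cel 4.95% and 1.77%, Fabp3 4.27% and 7.55% and Cd36 21.3% and 24.0%. Lipa differed from the other lipases here, with C11 at 140.1% and 106% of the C9 CPM. On the scale of the fit, where normalisation offsets the milk protein share of C9, the Lipa difference was 0.59 towards C9 (SE 0.26, adjusted p = 0.13), so neither cluster was shown to hold more. The C9 level of Pdk4 was 38.4 CPM in L mouse 1 and 197 CPM in L mouse 2, and C11 at 47.2 and 51.7 CPM lay between them. The test within mice passed (log2 1.89, SE 0.31, adjusted p = 9.1e-07), but it borrows spread across genes and does not show that the mice were alike. These clusters too were made from the same counts, so the test is not independent of the clustering and the levels are the result.

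**Figure D3:**
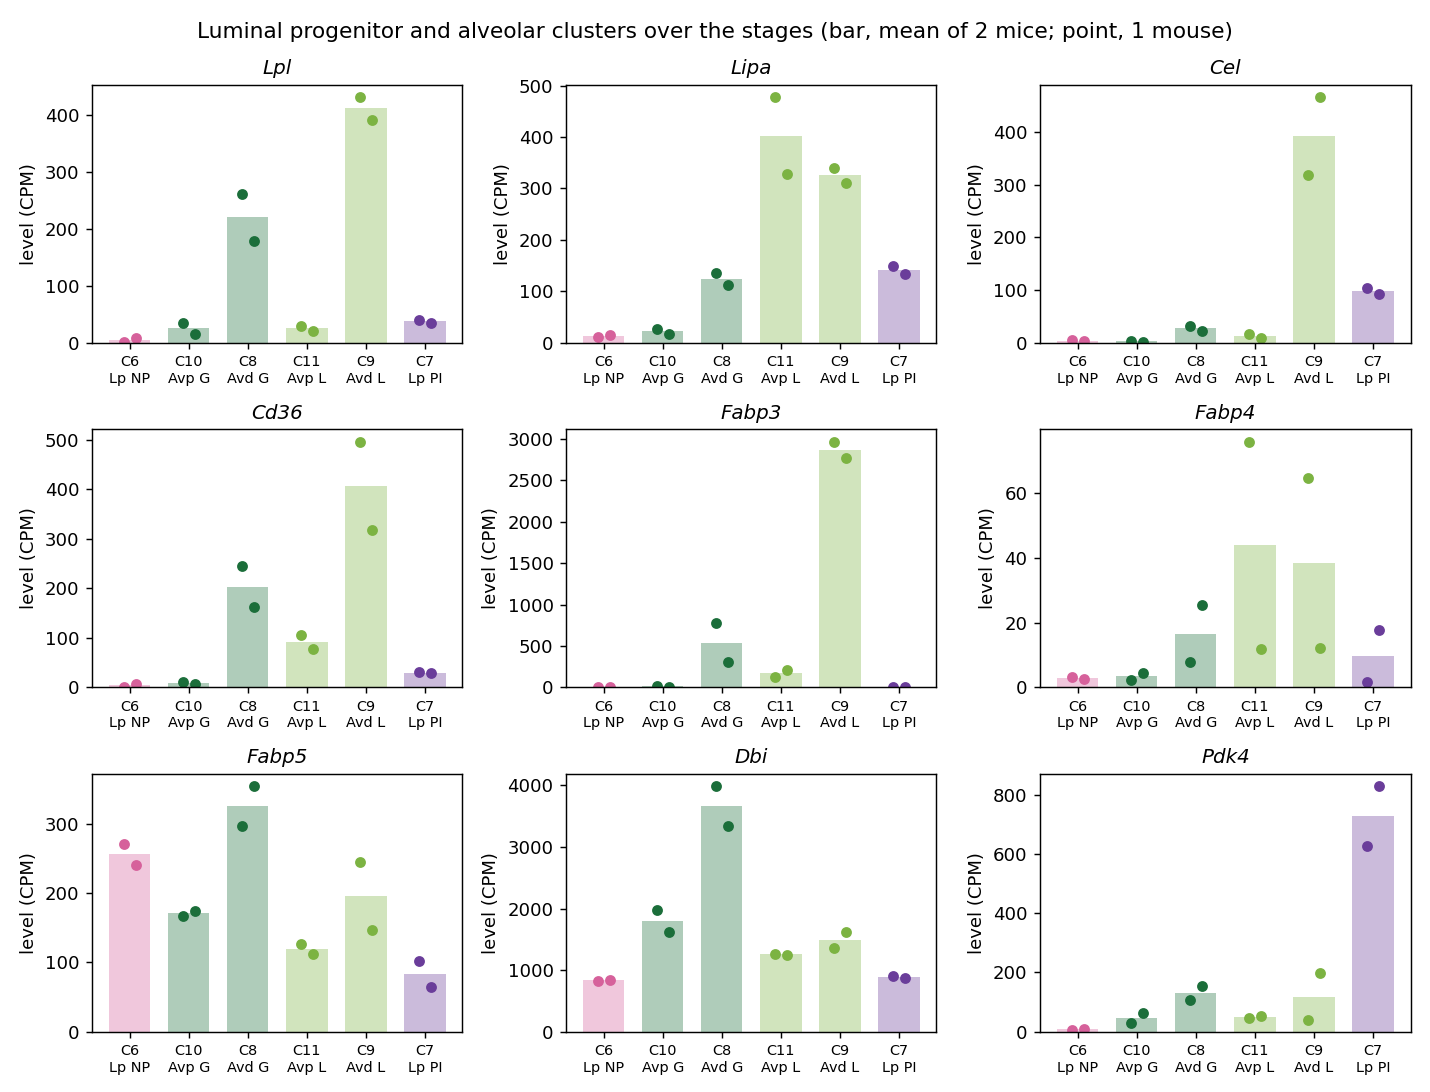
CPM of the 9 genes, each panel on its own linear axis from 0, in luminal progenitors of NP (C6), alveolar progenitors (Avp; C10 in G, C11 in L), differentiated alveolar cells (Avd; C8 in G, C9 in L) and luminal progenitors of PI (C7), with bars for the mean of 2 mice and 1 point per mouse. Lpl, Cel and Fabp3 are low in alveolar progenitors and high in C9, while Lipa in C11 (328 to 477 CPM) reaches the level of C9.

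The step from gestation to lactation was tested in each alveolar type. In differentiated cells (C9 against C8), 5 of 9 genes rose and none fell, while 18.4% of all 11858 genes were called (9.26% higher and 9.16% lower). The median over all genes in that fit was -0.16, and the values here are as fitted. Cel rose most, from 31.8 and 22.9 CPM to 318 and 466 CPM (log2 4.75, SE 0.26, adjusted p = 2.9e-07). Fabp3 went from 774 and 301 CPM to 2968 and 2772 CPM (log2 3.30, SE 0.38, adjusted p = 9.9e-05), Lipa from 135 and 111 CPM to 341 and 310 CPM (log2 2.29, SE 0.18, adjusted p = 5.8e-06), Cd36 from 245 and 162 CPM to 496 and 318 CPM (log2 1.88, SE 0.25, adjusted p = 0.00033) and Lpl from 261 and 179.7 CPM to 432 and 392 CPM (log2 1.79, SE 0.22, adjusted p = 0.00016). No L mouse overlapped a G mouse for these 5.

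For Dbi and Fabp5 the scale decides the size of the difference. Dbi CPM was 3988 and 3339 in C8 and 1368 and 1621 in C9, without overlap, and with the milk protein genes left out of the totals it was 4415 and 3542 against 2476 and 2782 CPM. The fit gave a log2 fold change of -0.40 (SE 0.22, adjusted p = 0.24). Fabp5 was lower in C9 on CPM (245 and 147 against 297 and 354 CPM), but with milk protein genes left out the L mice (443 and 252 CPM) lay on both sides of the G mice (329 and 376 CPM), and the fit gave 0.14 (SE 0.21, adjusted p = 0.69). Neither gene passed the test.

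In alveolar progenitors (C11 against C10), 4 of the 8 genes tested rose and none fell, while 28.9% of all 8398 genes were called (16.0% higher and 12.9% lower). Lipa went from 27.5 and 17.5 CPM to 477 and 328 CPM (log2 4.49, SE 0.28, adjusted p = 5.8e-06), Cd36 from 10.7 and 6.86 CPM to 105.5 and 76.4 CPM (log2 3.70, SE 0.30, adjusted p = 3.7e-05) and Fabp3 from 17.6 and 3.74 CPM to 127 and 209 CPM (log2 4.33, SE 0.43, adjusted p = 0.00012). Few C11 cells held much of the Fabp3: the top 1% of cells, at most 2 cells a mouse, had 37.2% and 47.2% of its UMIs, against 7.67% and 11.9% in the top 1% of C8. For Cd36 in C11 these shares were 13.2% and 40%, with 26 of 65 UMIs of L mouse 2 in 1 cell. Without cells holding an endothelial marker UMI, Cd36 in C11 was at 107.7 and 49.1 CPM. Fabp4 also passed, with 75.9 CPM in L mouse 1 but 11.8 CPM in L mouse 2, against 2.30 and 4.37 CPM in G, and its call was lost without L mouse 1 (log2 2.04, adjusted p = 0.072). Lpl overlapped between stages (35.2 and 16.2 CPM in G, 29.6 and 21.2 CPM in L, adjusted p = 0.55), and so did Pdk4.

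The change from gestation to lactation differed between the alveolar types for 3 of the 9 genes tested, while 3.58% of all 8798 genes were called (1.63% towards differentiated cells and 1.95% towards progenitors). Lpl changed more in differentiated cells, by 1.61 on the log2 scale (SE 0.31, adjusted p = 0.005). Lipa and Cd36 changed more in progenitors, by a log2 of -2.02 (SE 0.27, adjusted p = 0.00012) and -1.64 (SE 0.31, adjusted p = 0.0036). Without G mouse 1, Lpl (1.34, adjusted p = 0.26) and Cd36 (-1.62, adjusted p = 0.14) no longer passed, and without G mouse 2 Cd36 did not (adjusted p = 0.08), which left Lipa as the difference called with any mouse left out. Fabp3, which rose in both, was not shown to differ (-0.86, SE 0.38, adjusted p = 0.29). In other genes of the lists, G0s2, an inhibitor of triglyceride lipase, rose in both types (log2 2.88 and 3.30), as did Cav1 (4.38 and 4.62), and Acsl3 fell by a log2 of 1.79 in differentiated cells. Cav1 was at 61.7 ± 51.1 CPM in C9 and 158.5 ± 4.74 CPM in C11, against 1121 ± 82.4 CPM in lactation basal cells (mean ± SD of the mice). Both alveolar clusters of lactation held basal markers, and the part of basal RNA in the Cav1 rise was not tested.

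Before secretion begins, alveolar progenitors of gestation (C10) were compared with luminal progenitors of NP mice (C6). Of 6 genes tested, 3 rose and 1 fell, while 47.5% of all 9564 genes were called (24.3% higher and 23.2% lower). Dbi rose from 821 and 848 CPM to 1975 and 1627 CPM (log2 1.09, SE 0.13, adjusted p = 2.7e-05), Pdk4 from 6.94 and 8.71 CPM to 28.3 and 64.9 CPM (log2 2.61, SE 0.37, adjusted p = 0.00014) and Lpl to 35.2 and 16.2 CPM (log2 2.41, SE 0.50, adjusted p = 0.0019). Fabp5 fell from 271 and 241 CPM to 168 and 174 CPM (adjusted p = 0.0022). Lipa did not pass (adjusted p = 0.061). Of the 15 oxidation genes 10 rose and none fell, among them the thiolase gene Acaa2 (log2 1.74).

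Within NP mice, luminal progenitors (C6) and differentiated hormone-sensing cells (C4) already differed, on clusters made from these counts. Of 7 genes tested, 5 were higher in C6 and none lower, while 61.1% of all 11597 genes were called (29.6% higher and 31.5% lower). Fabp5 was at 271 and 241 CPM against 7.66 and 3.93 CPM, and Dbi at 821 and 848 CPM against 219 and 150.3 CPM. Pdk4 was measured at 6.94 and 8.71 CPM against 6.71 and 8.96 CPM, and did not pass the test (log2 -0.05, SE 0.29, adjusted p = 0.89). Lpl, Lipa and Cel were higher in C6 at levels of at most 14.9 CPM. Mgll, which cleaves monoglycerides, measured 36.7 ± 1.46 CPM in C6 against 0.991 ± 0.0612 CPM in C4 (mean ± SD, n = 2 mice).

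In basal cells, all 8 genes tested rose in G against NP, while 39.9% of all 11870 genes were called (21.0% higher and 18.9% lower). Pdk4 went from 22.3 and 33.7 CPM to 263 and 321 CPM (log2 3.51, SE 0.29, adjusted p = 2.2e-07), Fabp5 from 359 and 284 CPM to 478 and 739 CPM (log2 0.99, SE 0.19, adjusted p = 0.00056) and Dbi from 264 and 187.5 CPM to 408 and 436 CPM (log2 0.97, SE 0.15, adjusted p = 9.4e-05). No G mouse overlapped an NP mouse. Lipa rose from 2.58 and 3.19 CPM to 18.6 and 13.02 CPM (log2 2.56, SE 0.37, adjusted p = 4.5e-05).

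The other 4 basal rises were at low levels or came from few cells. Fabp4 was at 33.1 and 7.74 CPM in NP and 79.0 and 77.2 CPM in G, Cd36 at 4.23 and 5.46 CPM and 18.9 and 17.1 CPM, and Lpl at 2.58 and 6.37 CPM and 18.4 and 8.75 CPM. In G the 1% of basal cells with most Fabp4 held 75.8% and 75.9% of its UMIs and carried 988 and 967 CPM of endothelial markers, against 17.1 and 20.1 CPM in the rest. For Cd36 the top cells held 48.0% and 59.2% of UMIs with 1018 and 1173 CPM of endothelial markers, and for Lpl 57.5% and 61.5% with 7170 and 5108 CPM of fibroblast markers. Without cells holding an endothelial marker UMI, Fabp4 in basal cells was at 2.34 and 3.07 CPM in NP and 23.8 and 27.2 CPM in G, and the Lpl difference no longer passed (log2 1.17, adjusted p = 0.084). Lpl was also lost without NP mouse 1 (adjusted p = 0.21) or G mouse 1 (0.15), and Cd36 without NP mouse 1 (0.1). Fabp3 rose from 4.23 and 5.46 CPM to 19.6 and 10.3 CPM (log2 1.74, SE 0.35, adjusted p = 0.0011). The milk protein genes of basal cells summed to 78.3 and 51.4 CPM in NP and 1776 and 939 CPM in G. The part of free RNA from milk-making cells in the basal rises was not tested.

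From gestation to lactation, 3 of 8 genes rose in basal cells, 2 fell and 3 did not pass, while 50.1% of all genes were called (25.2% higher and 24.9% lower). Fabp5 fell to 132.5 and 148 CPM (log2 -1.99, SE 0.19, adjusted p = 3.3e-07) and Pdk4 to 101 and 184 CPM (log2 -0.91, SE 0.24, adjusted p = 0.0043). Dbi rose to 1082 and 1069 CPM (log2 1.48, SE 0.15, adjusted p = 5.3e-07) and Fabp3 to 58.8 and 67.6 CPM (log2 2.22, SE 0.23, adjusted p = 1e-06). Fabp4 passed as well, but its L mice (262 and 76.2 CPM) lay on both sides of the G mice, and without L mouse 1 its log2 fold change was 0.12 (adjusted p = 0.71). Of the 15 oxidation genes, 3 rose and 7 fell in this step. Ppargc1a, a coactivator of oxidative genes, rose by a log2 of 3.5.

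**Figure D4:**
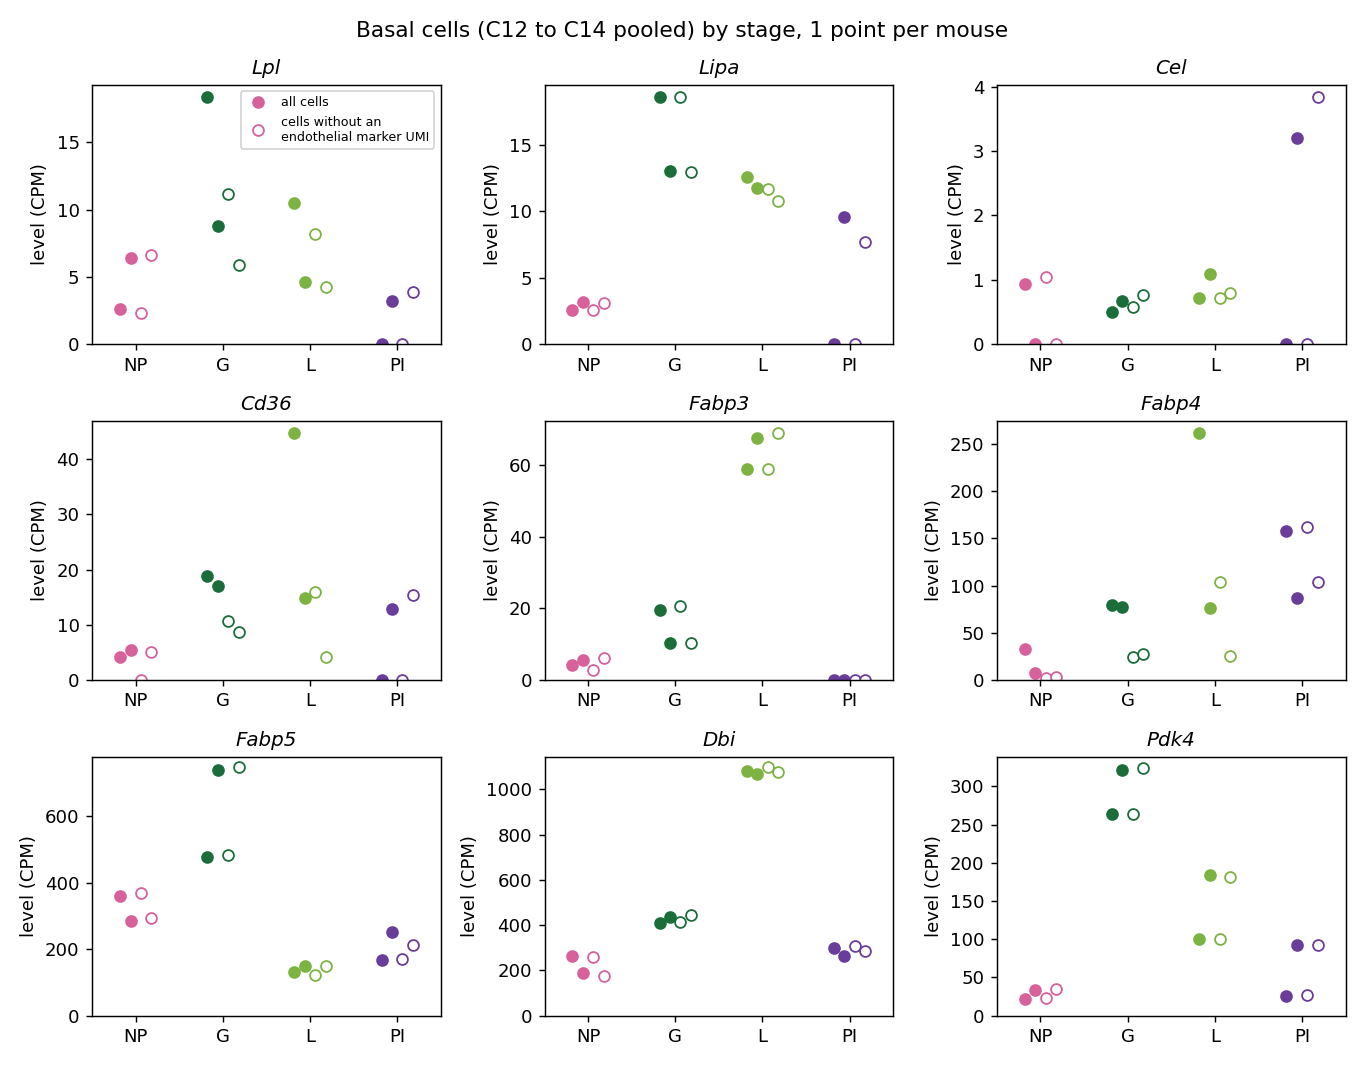
CPM of the 9 genes in the pooled basal cells of each stage, each panel on its own linear axis from 0, with 1 point per mouse from all cells (filled) and from cells without an endothelial marker UMI (open). Pdk4 and Fabp5 peak in gestation, Dbi and Fabp3 are highest in lactation, and the open points of Fabp4 lie below the filled ones in NP, G and L.

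Free RNA from milk-making cells can reach other droplets, and Fabp3 was set against Csn2, the beta-casein gene, to give its ratio in each cluster. In gestation, basal cells held 31.0 and 29.3 Fabp3 UMIs per 1000 Csn2 UMIs, close to macrophage marker-bearing C17 (28.4 and 26.9). In lactation, basal cells held 177 and 210 per 1000, against 49.0 and 114 in C17 and 30.6 and 34.6 in C9, so the ratio was not the same in every type. A UMI of Fabp3 was seen in 16.9% and 22.4% of lactation basal cells, and in 10.4% and 8.97% of C17 cells, with median depths of 3701 and 4147 UMIs and of 5256 and 5416 UMIs. Thinned to 1000 UMIs per cell, these shares were 5.22% and 5.93% in basal cells and 1.42% and 1.92% in C17.

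After involution, basal cells were few (28 and 59 cells) and none of the 8 genes passed the edgeR test against NP, nor with DESeq2, while 4.47% of all genes were called by edgeR (1.92% higher and 2.54% lower). At an unadjusted p under 0.05, 3 of the 8 differed by edgeR, as did 2223 of all 11870 genes. The 3 were Fabp4 (157 and 86.4 CPM against 33.1 and 7.74 CPM), Pdk4 (26.2 and 92.8 CPM against 22.3 and 33.7 CPM) and Fabp5 (166 and 253 CPM against 359 and 284 CPM). The median over all genes was -0.20 in this contrast. Fabp3 had no UMI in either PI mouse, which allows up to 26.2 and 9.60 CPM, above the NP levels. With cells holding an endothelial marker UMI left out, Fabp4 was at 162 and 104 CPM in PI against 2.34 and 3.07 CPM in NP and passed (log2 5.43, adjusted p = 0.0017). Few cells carried it: among all basal cells, 1 cell held 17 of the 18 Fabp4 UMIs of PI mouse 1 (94.4%). In PI mouse 2, 1 cell held 20 of 27 (74.1%). A rise across basal cells is therefore not shown.

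For each gene, the genes with the most similar pattern were sought by Pearson's r of log2(CPM + 1) over the 51 sums, which share libraries, depth and clusters, so r is a description. Fabp4 followed Adgrf5 (r = 0.954), Gng11 (0.912) and Sparcl1 (0.867), Cel followed Cyp24a1 (0.892), A630023A22Rik (0.853) and Lalba (0.844), and Fabp3 followed Glycam1 (0.889), Wap (0.803) and Csn1s2a (0.797). Lipa was most like Plin2 (0.838), Lpl most like Insig1 (0.835), Dbi most like Muc15 (0.815), Cd36 most like Grrp1 (0.814) and Fabp5 most like Hacd2 (0.80). Pdk4 had no close match, with Cyp24a1 at 0.664. Among the 9 genes themselves Lipa was most like Lpl and Cd36 (0.66 each).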

How the data were processed

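Mammary cells of 8 mice were profiled with the 10x Chromium platform. The authors deposited UMI counts per gene and cell, made with Cell Ranger and STAR on mm10 (per the labels and the methods; versions are not given in the sources used here), and a table of quality flags and clusters. All genes, and the cells that passed every flag, were used. The 310 cells of C20 were left out, and 0 of the barcodes used shared a sequence between libraries. The members and lists were chosen with earlier results of these data known.

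Counts were summed per mouse and cluster and tested with edgeR 4.0.16 in R 4.3.3 (quasi-likelihood F-test, TMM, filterByExpr with minimum counts of 10 and 15, Benjamini-Hochberg over all genes tested at 0.05). Basal cells were fitted over all 8 mice, within-stage and difference tests with the mouse as a term. Cells were not treated as replicates, and with 2 mice a group an exact permutation test cannot go below p = 0.333, so the tests borrow spread across genes. The 2 mice of a stage are separate animals. Fold changes are on edgeR's scale, CPM on that of the totals. The fits were tested on simulated data with a fixed spread not taken from these mice. Changes of log2 1 were recovered in 2.04% of changed genes for the lactation difference, 3% for the parity difference and 5% in basal PI against NP. Changes of log2 2 were recovered in 29.6%, 63% and 55% there. The other contrasts recovered 15% to 34% and 69% to 99%. A gene that did not pass is thus not shown to be unchanged. Genes of the lists were named by rule: of those past the test with at least 20 CPM in a group and no overlap between mice, the 3 with the largest rise and 2 with the largest fall. Alternatives were DESeq2 1.42.0, no filter, the study's filter, milk protein genes left out, equal depth, a fold threshold, each mouse left out, the replicate number as a term, and, chosen after seeing the data, cells with an endothelial marker UMI left out and C4 in both stages. Sequences came from RefSeq (GRCm38.p6), positions from the GENCODE annotation of GRCm38. Cell types come from the authors' clusters, and doublets were not called again. Intervals and limits at 0 (3 counts) cover counting error only.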

Additional observations from a re-analysis of the deposited data

Results flagged for a closer look

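By a test of the difference itself, luminal progenitors and differentiated hormone-sensing cells did not share the same NP to PI change for Pdk4 (4.31 on the log2 scale), Lipa (3.22), Fabp4 (3.12), Cd36 (3.06), Lpl (2.86) and Fabp5 (1.79). Cd36, Lpl and Fabp5 lost this call with a mouse left out. Most Fabp4 UMIs in C7 of PI mouse 2 came from 12 cells rich in endothelial markers. In differentiated hormone-sensing cells alone Lpl and Cd36 were too low to be tested, so their difference rests on the luminal progenitors. The change from gestation to lactation differed between differentiated and progenitor alveolar cells for Lpl (1.61), Lipa (-2.02) and Cd36 (-1.64). Only Lipa among them kept its call with any mouse left out. For Lipa and Cd36 the rise was larger in progenitors, and for Lpl larger in differentiated cells. With 2 mice a group, single mice were not tested as far from the others.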

How the results depend on the processing

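Counts are of the 9 genes called, with the main count in brackets. Against a log2 change of 1 at a false discovery rate of 0.01 (glmTreat) they were 5 (8) in hormone-sensing progenitors, 1 (4) in C10 against C6, 3 (5) in differentiated alveolar cells, 2 (8) in basal G against NP, 3 (5) in basal L against G, 4 (7) in C9 against C11, 2 (6) for the parity difference and 0 (3) for the lactation difference. With the study's filter they were 1 (3) in differentiated hormone-sensing cells, 2 (5) in C6 against C4 and 3 (6) for the parity difference. At equal depth they were 1 (3) in differentiated hormone-sensing cells, 2 (8) in basal G against NP, 2 (5) in basal L against G, 2 (0) in basal PI against NP and 3 (5) in C6 against C4. C4 in both stages gave 1 (3). Basal PI against NP gave 3 without a filter and 1 without cells holding an endothelial marker UMI. Fewer genes or counts enter the study's filter and equal depth by construction, and other causes were not tested.

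With single mice left out, the counts ranged from 6 to 7 in luminal progenitors, 5 to 8 in hormone-sensing progenitors (5 without NP mouse 1), 2 to 3 in differentiated hormone-sensing cells, 4 to 7 in C10 against C6 (7 without NP mouse 2), 6 in each case in differentiated and 3 to 5 in progenitor alveolar cells, 6 to 8, 4 to 6 and 0 to 2 in the basal contrasts, 4 to 6 for the parity difference and 1 to 6 for the lactation difference (1 without G mouse 1, 2 without G mouse 2, 6 and 5 without L mouse 1 or 2). A group left with 1 mouse was assumed to vary like the others. Signs turned, as ranges over the mice left out, for Fabp4 in luminal (-0.65 to 2.66) and hormone-sensing progenitors (-2.61 to 3.99), Dbi in differentiated hormone-sensing cells (-0.05 to 0.43), Fabp5 (-0.21 to 0.43) and Pdk4 (-0.93 to 1.53) in differentiated alveolar cells, Lpl (-0.16 to 0.94) and Pdk4 (-0.12 to 1.09) in alveolar progenitors, and Lipa (-0.46 to 0.03) and Cd36 (-0.11 to 1.46) in basal L against G. In basal PI against NP they turned for Lipa (-7.26 to 1.64), Cd36 (-7.99 to 1.32), Dbi (-0.07 to 0.37) and Pdk4 (-0.25 to 1.65), in the parity difference for Dbi (-0.22 to 0.34), and in the lactation difference for Dbi (-0.29 to 0.16) and Pdk4 (-1.15 to 1.27). None of these was called with all mice except Fabp4 in hormone-sensing progenitors. Other turns were small: Lpl in alveolar progenitors without endothelial marker cells (-0.11), Sdc1 with C4 in both stages (0.05), Pdk4 in C6 against C4 at equal depth (0.07), and Dbi in the parity difference at equal depth (-0.09) and without endothelial marker cells (-0.02).

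The replicate numbers did not pair the mice (correlations of -0.05 to 0.07 between stages). With the replicate block, 1 gene was called in basal PI against NP, namely Fabp4 (log2 2.47, adjusted p = 0.0029). Its UMIs in PI basal cells came mostly from 1 cell a mouse. Over all genes 570 were called against 530 in that contrast and 3146 against 2955 in luminal progenitors. The mouse term had a larger effect within stages, with 2125 genes called without it against 3367 in C8 against C10 and 489 against 868 in C9 against C11. Over all genes DESeq2 called 1615 against 2955 in luminal progenitors, 807 against 1735 in hormone-sensing progenitors, 1211 against 2424 in alveolar progenitors, 1122 against 3367 in C8 against C10, 199 against 868 in C9 against C11 and 657 against 1667 for the parity difference. Across contrasts the fold threshold called 18 to 1940 genes. Equal depth, set by the small PI basal sums, called 368 against 4739 in basal G against NP and 582 against 5949 in basal L against G. Over the 9 genes and all contrasts, 1161 alternative values counted as the same, 20 moved, 75 lost a call, 46 gained one and 22 turned sign. The same means that direction and call were kept. With a mouse left out of a within-stage contrast no call was made. There, a value counted as the same if it lay within the SD between mice of the main value, and otherwise as moved. C5, C9, C10, C11, the PI sums of C4 and of basal cells, and C1 of PI mouse 1 rest on fewer than 150 cells each.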

Other observations

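Differentiated hormone-sensing cells of gestation (C5, 20 and 41 cells) were in no comparison. Lpl stood at 56.8 and 38.7 CPM there, above C4 of NP (0.0789 and 0.827 CPM) and C3 of PI (0.60 and 0.451 CPM), and Pdk4 at 73.0 and 46.5 CPM. Lipa was at 16.2 and 3.87 CPM and Dbi at 341 and 325 CPM. Milk protein genes held 1842 and 991 CPM in C5, and their part in these levels was not tested.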
